A study of Rattus norvegicus with 36 samples.

Results

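Whole-lung RNA from Brown Norway rats was compared with whole-lung RNA from Lewis rats at postnatal day 14 (PN14), an age at which the rat lung has formed most of its first alveoli and is thinning the walls between them. The comparison uses the 4 arrays titled for Brown Norway and the 4 titled for Lewis at this age, which are 8 of the 36 one-colour Illumina arrays in the study. The series title names asthma susceptibility in the developing lung as its subject. The remaining arrays hold the Fisher strain at the same age and all 3 strains at PN1 and PN7. Lungs of both groups were whole organs, and no treatment, allele or agent is named for either. The labels do not say whether replicates came from separate animals, so the p-values below measure the spread between samples, which may be technical.

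Brown Norway and Lewis are inbred strains, so all animals of a strain carry the same alleles. Brown Norway rats make strong IgE responses to inhaled allergen and are a common model of allergic airway disease, whereas Lewis rats make weak ones. An array reads the amount of RNA bound by a short probe per gene: the level is given here as normalized log2 intensity, on which a step of 1 is a 2-fold difference. In a whole organ, fewer cells of a type and less RNA per cell cannot be told apart. A low reading can also come from a mismatch between a probe and the allele of 1 strain, and no such alleles were read here.

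The 8 arrays detected between 9571 and 10583 of 22226 probes, and 2 of them stood apart. Brown Norway replicate 3 correlated at 0.975 with the mean of its own group and at 0.994 with Brown Norway at PN1, while the 3 others correlated with each other at 0.994 to 0.996 over the tested probes. Lewis replicate 2 correlated at 0.985 with its group, against 0.993 to 0.998 among the 3 other Lewis arrays. The muscle actin Acta1 read 8.66 to 10.65 on the Brown Norway arrays, and 15.69 on Lewis replicate 2 against 8.28 to 8.56 on the other Lewis arrays. Every count was therefore also taken over 6 arrays, without these 2. Here 8 and 6 number the PN14 arrays of both strains, and each fit took its spread from the other groups as well.

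The labelled organ was borne out by its defining markers. The surfactant genes Sftpc, Sftpb and Sftpa1, the type I cell receptor Ager, the club cell secretoglobin Scgb1a1 and the endothelial cadherin Cdh5 were detected on all 36 arrays. The summed linear intensity of 21 skeletal muscle genes was 11618 to 20115 on the Brown Norway arrays, and 179506 on Lewis replicate 2 against 10663 to 15400 on the other Lewis arrays. A sum over 14 neutrophil genes reached 17343 on Brown Norway replicate 3, above 7027 to 7121 on the other Brown Norway arrays and 9035 to 11647 on the Lewis arrays. Genes of brown and white fat, 22 in number, averaged 9.04 to 10.12 in Brown Norway and 9.23 to 10.68 in Lewis, with Ucp1, the heat-producing protein of brown fat, anywhere between 8.05 and 13.54 in Brown Norway and between 8.05 and 14.44 in Lewis. The 18 heart genes averaged 9.44 to 10.39 in Brown Norway and 8.95 to 10.76 in Lewis. Of the thymus markers, Dntt was detected on 0 of the 36 arrays, and Rag1 on 8, among them 2 of 4 Brown Norway and 2 of 4 Lewis arrays at PN14 (8.05 to 8.25 in Brown Norway and 8.08 to 8.30 in Lewis).

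**Figure D1:**
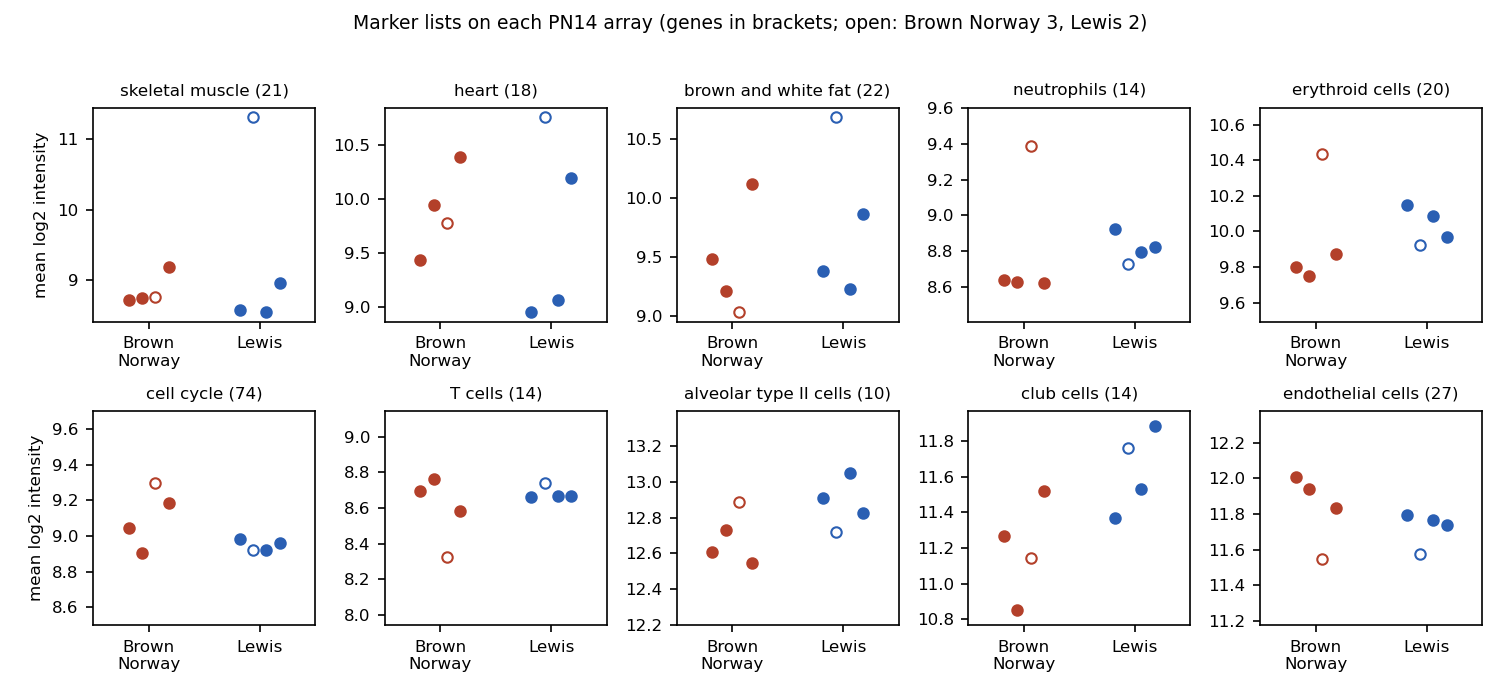
Mean normalized log2 intensity of 10 marker lists on each of the 8 arrays, Brown Norway left and Lewis right; the number of genes averaged stands in brackets, and the open points are Brown Norway replicate 3 and Lewis replicate 2. Each panel has its own vertical range. Lewis replicate 2 is high in skeletal muscle (11.31 against 8.55 to 8.96), and Brown Norway replicate 3 is high in neutrophil genes (9.39 against 8.62 to 8.64).

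The largest strain differences were in genes of unlike function. The class I histocompatibility genes RT1-CE16, RT1-A2 and RT1-A1 were higher in Brown Norway, by 9.98-fold for RT1-CE16. The rest of the class I pathway went both ways. The ribosomal protein gene Rpl30, the caveola gene Cavin2 and the lung transcription factor Nfib were 15.3-fold, 6.90-fold and 3.99-fold higher. The galectin Lgals5, the integrin chain Itga4, the complement protease C1s and the water channel Aqp5 were 7.55-fold, 4.20-fold, 2.95-fold and 2.88-fold lower. The fibrillin gene Fbn2 was 2.87-fold higher. Of 26 macrophage and monocyte genes 6 were lower, and of 51 detoxification genes 11 were lower and 5 higher, where 6.91% of all probes were lower and 6.76% higher.

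Of 11339 probes tested, 1550 passed an adjusted p of 0.05 in limma, which is 13.7%, with 766 higher in Brown Norway (6.76%) and 784 lower (6.91%). Over 6 arrays 1118 passed (9.86%), of which 992 also passed over 8, which is 64.0% of the larger set and 88.7% of the smaller. Most differences were small, with a median of 0.31 on the log2 scale among the probes that passed, and 97 of them (0.855%) were at least 2-fold. Of these 97, 96 passed over 6 arrays as well. The 4 Brown Norway values lay entirely above or below the 4 Lewis values for 1900 probes (16.8%). Scaling the arrays by their medians alone left 660 probes past the threshold, 59.5% of them higher in Brown Norway against 49.4% by quantiles. The 8 arrays fitted without the other groups gave 793 probes. Leaving out Brown Norway PN1 replicate 5, which resembles PN14, beside the 2 arrays that stand apart gave 1393.

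**Figure D2:**
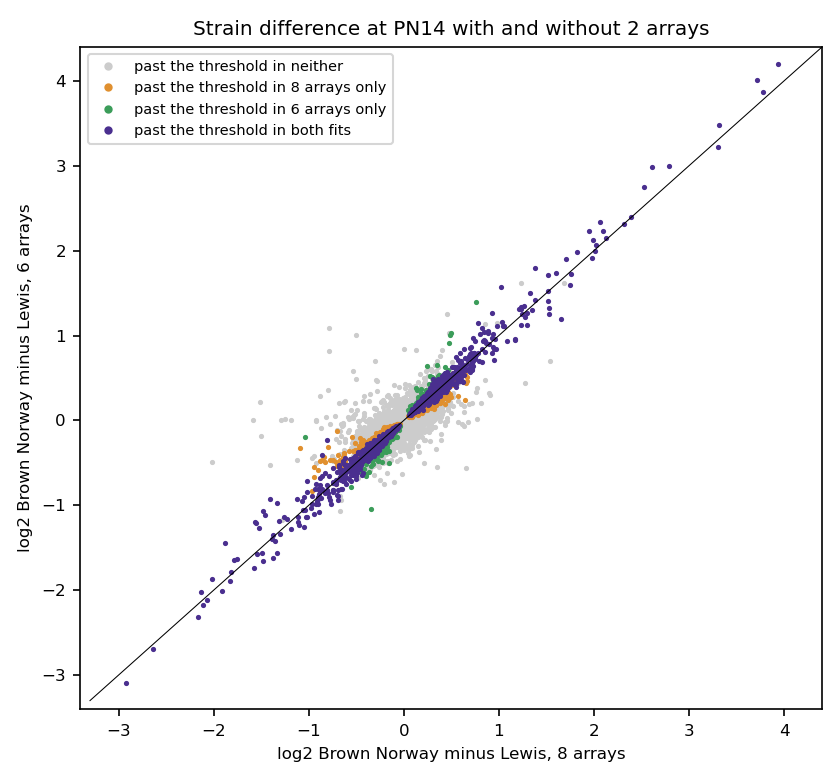
Log2 difference, Brown Norway minus Lewis, of each tested probe with all 8 arrays (horizontal) and with 6 arrays (vertical, without Brown Norway replicate 3 and Lewis replicate 2); colour marks the fit in which the probe passed an adjusted p of 0.05, and the line marks equal values. The 992 probes that passed in both fits lie along the line.

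Class I molecules present peptides from inside the cell to CD8+ T cells and are also read by natural killer cells, and in the rat they are encoded by the RT1 complex, whose gene content differs between inbred strains. Of 24 class I pathway genes tested, 8 were higher in Brown Norway and 2 lower (9 and 2 over 6 arrays), where 6.76% and 6.91% of all probes were over 8 arrays and 4.76% and 5.1% over 6, with a median difference of 0.00 over the list and of 0.01 over all probes. RT1-CE16, a class I heavy chain gene, read 11.50, 11.83, 11.31 and 11.65 in Brown Norway lungs, against 8.02, 8.48, 8.32 and 8.19 in Lewis lungs. The groups were 9.98-fold apart without overlap (log2 difference 3.32 ± 0.11 SE, adjusted p = 3.52e-20), and its probe was detected on 3 of the 4 Lewis arrays. RT1-A2, a classical class I heavy chain, read 11.09, 11.62, 9.85 and 10.91 in Brown Norway, against 8.08, 8.37, 8.37 and 8.20 in Lewis, a log2 difference of 2.61 ± 0.28 (adjusted p = 2.76e-08). Its Lewis values lay near the background, with 3 of 4 arrays detected, and its lowest Brown Norway value was replicate 3. RT1-A1 was bright in both strains, at 14.65, 14.82, 14.21 and 14.54 in Brown Norway and 12.39, 12.89, 12.82 and 12.83 in Lewis, and 3.53-fold higher in Brown Norway (adjusted p = 1.76e-11).

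The promoters of these 3 genes share runs of identical letters, and whether such runs bear on the strain difference was not tested. The stretches are shown because the 3 genes were all higher in Brown Norway. Each comes from RefSeq on build GRCr8, a genome of the Brown Norway strain, and the capitals mark runs identical in all 3, the longest that a search of the 250 bases before each annotated start found. RT1-CE16 lies at chr20:3265521-3265646 on the minus strand, RT1-A2 at chr20:4872625-4872749 and RT1-A1 at chr20:4907011-4907136 on the plus strand, written 5′ to 3′.
RT1-CE16: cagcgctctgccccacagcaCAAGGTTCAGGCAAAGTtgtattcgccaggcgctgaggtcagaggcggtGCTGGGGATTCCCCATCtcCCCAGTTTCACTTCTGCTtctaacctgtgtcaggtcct
RT1-A2: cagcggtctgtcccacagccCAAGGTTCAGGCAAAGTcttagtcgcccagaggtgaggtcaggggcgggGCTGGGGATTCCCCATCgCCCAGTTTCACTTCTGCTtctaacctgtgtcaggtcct
RT1-A1: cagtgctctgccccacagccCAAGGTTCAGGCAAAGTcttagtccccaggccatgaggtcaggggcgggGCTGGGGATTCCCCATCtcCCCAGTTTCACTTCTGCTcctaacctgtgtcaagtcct

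The middle run, GCTGGGGATTCCCCATC, holds the NF-kappaB type sequence known as enhancer A, and the run after it, CCCAGTTTCACTTCTGCT, covers the interferon-stimulated response element that follows it in class I promoters. On either strand, the middle run was found in 6 of 33469 rat promoters (0.0179%) and the other in 10 (0.0299%). Both counts include the 3 promoters from which the runs were taken. Neither run was found letter for letter in the listed promoter of RT1-T24-4, B2m or Tap1. A search for exact runs cannot show whether those promoters lack either element. These matches describe letters only, and no Lewis sequence was read.

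Other class I pathway genes went both ways. RT1-T24-4, singled out after its values were seen, read 12.37, 12.39, 11.59 and 11.995 in Brown Norway and 10.94, 10.99, 11.23 and 11.25 in Lewis, a log2 difference of 0.98 (adjusted p = 9.56e-07). Tap1, a chain of the pump that carries peptides into the endoplasmic reticulum, was higher by 0.56 (adjusted p = 0.00158), whereas Tapbp, the tapasin that loads them, had a difference of -0.60 (adjusted p = 0.000118), both also singled out afterwards. RT1-M3-1 was lower as well, with a difference of -0.48. Because RT1 genes are near copies of each other, a probe may read more than its named gene. Of 6 class II genes tested, 1 was higher and 2 lower (0 and 1 over 6 arrays). On this short list that is 50% and 16.7%, where 13.7% and 9.86% of all probes passed. The chains of the chaperone that loads class II molecules went opposite ways: RT1-DMb had a difference of -0.39 (adjusted p = 0.000197) and RT1-DMa of 0.38 (adjusted p = 0.0395), and RT1-DMa did not pass over 6 arrays (0.21, adjusted p = 0.403).

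The other genes with the largest positive differences had unlike roles. Rpl30, a protein of the large ribosomal subunit, read 13.76, 13.66, 13.95 and 13.68 in Brown Norway lungs, against 8.43, 10.81, 9.99 and 10.08 in Lewis lungs, a log2 difference of 3.93 ± 0.28 (adjusted p = 3.91e-12). The Lewis arrays differed among themselves more than the Brown Norway ones but stayed below them all, and Fisher lungs, at 13.70 ± 0.06 (SD, n = 4), read like Brown Norway. Mrpl18, of the mitochondrial ribosome, read 12.16, 12.28, 12.35 and 12.30 in Brown Norway and 8.08, 8.82, 8.52 and 8.55 in Lewis, 13.8-fold apart (adjusted p = 2.41e-23), and was detected on 3 of 4 Lewis arrays. Plekhf2, an endosomal adaptor, was 9.91-fold higher, its Lewis signal detected on 2 of 4 arrays. The mitophagy receptor Bnip3 and the zinc finger gene Zcchc9 were 5.24-fold and 4.99-fold higher, again with Fisher levels (11.38 and 10.64) nearer Brown Norway. The splicing factor Bcas2 differed by 1.75. Adh1c, an alcohol dehydrogenase that also oxidises retinol, read 11.38, 11.19, 13.39 and 11.59 in Brown Norway and 9.95, 10.35, 10.11 and 10.51 in Lewis, and replicate 3 was its highest Brown Norway value by far (difference 1.66 over 8 arrays and 1.20 over 6, adjusted p = 0.000553 and 0.00459).

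For other genes it was Brown Norway that stood apart, with Fisher near Lewis. Cavin2, which coats caveolae in endothelial cells, read 12.45, 12.51, 11.88 and 12.25 in Brown Norway lungs, against 9.09, 9.73, 9.70 and 9.42 in Lewis lungs, a log2 difference of 2.79 ± 0.15 (adjusted p = 5.58e-15). Every Brown Norway array was above every Lewis one, and Fisher lungs averaged 9.13 ± 0.07. Nfib, a transcription factor that the mouse lung needs for maturation, read 13.20, 13.29, 13.12 and 13.23 in Brown Norway and 10.997, 11.51, 11.19 and 11.15 in Lewis (difference 2.00, adjusted p = 7.12e-12). Ankra2, an ankyrin repeat protein, and Pxmp4, a peroxisomal membrane protein, were about as far apart, at 2.02 and 2.01, but their Lewis signal was detected on 1 and 2 of 4 arrays. Over the 97 probes at least 2-fold apart, the Fisher mean was nearer Lewis for 51 and nearer Brown Norway for 46, a count without a test.

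**Figure D3:**
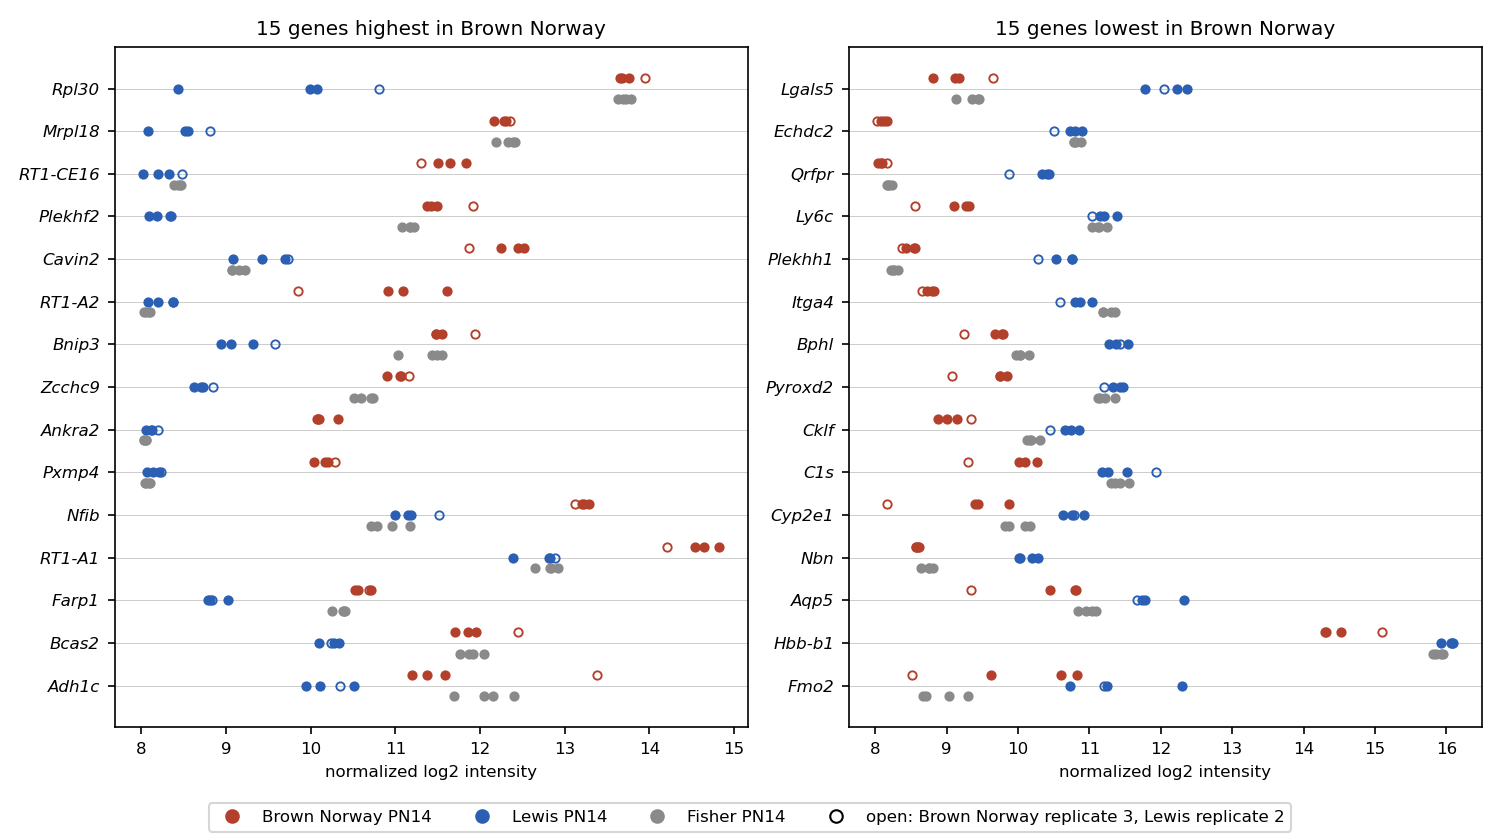
Normalized log2 intensity on each PN14 array for the 15 genes highest (left) and the 15 lowest (right) in Brown Norway relative to Lewis, among those that also passed without Brown Norway replicate 3 and Lewis replicate 2 (open points). Fisher arrays are shown in grey below; for Rpl30 they lie with Brown Norway and for Cavin2 with Lewis.

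Among the lowest genes, Lgals5, a galectin of rat red cells and their precursors, read 9.12, 8.81, 9.66 and 9.17 in Brown Norway, against 12.23, 12.04, 12.36 and 11.78 in Lewis, a log2 difference of -2.92 ± 0.29 (adjusted p = 5.53e-09). Its groups did not overlap, and Fisher lungs averaged 9.35 ± 0.15. The beta globin gene Hbb-b1 was lower (adjusted p = 0.00159), at 14.31, 14.30, 15.11 and 14.52 in Brown Norway and 16.08, 16.06, 16.10 and 15.93 in Lewis. Its Lewis values neared the top of the array's range (16.11), so no fold is given. Of 20 erythroid genes tested, these 2 were lower and 1 was higher, Ank1, a red cell membrane adaptor (0.39, adjusted p = 0.0254). The share called was 15% over 8 arrays and 10% over 6, near the 13.7% and 9.86% of all probes. Ank1 did not pass over 6 arrays (0.24, adjusted p = 0.309), nor when any 1 of Brown Norway replicate 3 and Lewis replicates 2, 3 and 4 was left out. The list's mean was 9.75 to 9.87 in Brown Norway apart from replicate 3, at 10.44, and 9.92 to 10.15 in Lewis.

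A further 2 genes read at background in Brown Norway. Echdc2, an enoyl-CoA hydratase-like mitochondrial protein, read 8.12, 8.08, 8.03 and 8.16 in Brown Norway, where it was detected on 0 of 4 arrays, against 10.80, 10.51, 10.90 and 10.73 in Lewis. It was at least 6.06-fold lower (adjusted p = 7.33e-23), and Fisher lungs, at 10.82, read like Lewis. Qrfpr, a neuropeptide receptor, read 8.09, 8.04, 8.16 and 8.09 in Brown Norway, again with 0 of 4 detected, and 10.34, 9.88, 10.43 and 10.41 in Lewis, at least 4.38-fold lower (adjusted p = 7.03e-19). Fisher lungs, at 8.19, were near the Brown Norway level.

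Genes of leukocytes went both ways. Itga4, the alpha chain of an integrin by which leukocytes leave the blood, read 8.80, 8.73, 8.66 and 8.83 in Brown Norway and 11.04, 10.59, 10.87 and 10.80 in Lewis, 4.20-fold apart (adjusted p = 1.60e-16), with Fisher at 11.26. Ly6c, a surface antigen of monocytes, read 9.27, 9.31, 8.56 and 9.11 in Brown Norway and 11.21, 11.04, 11.15 and 11.39 in Lewis (difference -2.14, adjusted p = 8.33e-13), and its relative Ly6i, singled out after its values were seen, went the other way, at 11.74, 12.02, 11.13 and 11.81 in Brown Norway and 9.84, 10.19, 10.47 and 10.11 in Lewis (difference 1.52, adjusted p = 5.97e-08). The Ly6 family holds near copies, so either probe may read several members. Cklf, a chemokine-like factor, was 2.99-fold lower. The chemokine receptor Ccr1, singled out afterwards, was 2.04-fold lower (adjusted p = 0.000201).

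Macrophages patrol the airspaces and clear surfactant, and the genes of their list that passed were all lower in Brown Norway. Of 26 macrophage and monocyte genes tested, 0 were higher and 6 lower in Brown Norway (0 and 4 over 6 arrays), with a median difference of -0.10 against 0.01 over all probes. The lower share was 23.1% over 8 arrays and 15.4% over 6, where 6.91% and 5.1% of all probes were lower. Mrc1, the mannose receptor of tissue macrophages, read 10.12, 10.25, 10.54 and 10.001 in Brown Norway and 11.02, 10.72, 10.93 and 11.06 in Lewis (difference -0.71 ± 0.12, adjusted p = 7.89e-05). Cd68, a lysosomal protein singled out afterwards, read 10.23, 10.42, 10.96 and 10.29 in Brown Norway and 11.36, 10.91, 11.24 and 11.16 in Lewis. Brown Norway replicate 3 was the highest of its group and the only one inside the Lewis range, and the difference was -0.69 over 8 arrays and -0.94 over 6 (adjusted p = 0.000631 and 6.93e-06). Apoe, the lipid carrier that macrophages secrete, read 12.53, 12.98, 11.16 and 12.38 in Brown Norway and 13.52, 13.61, 13.69 and 13.58 in Lewis (difference -1.34, adjusted p = 0.0013; -0.97 with an adjusted p of 0.022 over 6 arrays). The remaining called members were Ly6c, Pparg and the elastase Mmp12, of which Pparg and Mmp12 did not pass over 6 arrays (adjusted p = 0.107 and 0.297). The list's mean was 9.58 to 9.69 in Brown Norway and 9.88 to 9.90 in Lewis, and the groups did not overlap.

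Lists of other leukocytes were short. Of 9 natural killer cell genes tested, 0 were higher and 3 lower, also over 6 arrays, namely Gzma, Ctsw and the pore-forming perforin Prf1, which had the largest difference of the 3 (-0.44, adjusted p = 0.00178). That is 33.3% in both fits, where 6.91% of all probes were lower over 8 arrays and 5.1% over 6. Gzma and Ctsw read near background, at 8.04 and 8.17 in Brown Norway and 8.26 and 8.28 in Lewis. They were detected on 0 and 1 of 4 Brown Norway arrays. Of 14 T cell genes, 0 passed in limma, and 0 had an unadjusted p under 0.05. Of 14 neutrophil genes, 0 were higher and 1 lower, also over 6 arrays. That is 7.14% in both fits, where 13.7% of all probes passed over 8 arrays and 9.86% over 6. The lower one was the chemokine receptor Cxcr1 (difference -0.51, adjusted p = 3.24e-08), although Brown Norway replicate 3 was high in the neutrophil list. Of 11 mast cell and basophil genes, 0 were higher and 1 lower (2 and 1 over 6 arrays), or 9.09% and 27.3%, with a median of 0.07. Kit, the stem cell factor receptor of mast cells, was 1.87-fold lower (adjusted p = 1.77e-05), at 9.17, 8.86, 8.73 and 8.87 in Brown Norway and 9.75, 9.59, 9.79 and 10.11 in Lewis. Of 7 B cell genes, 1 was higher and 1 lower (3 and 1 over 6 arrays), or 28.6% and 57.1%. Blnk, an adaptor of the B cell receptor, was detected on 3 of 4 Brown Norway arrays and 0 of 4 Lewis arrays, at least 1.11-fold higher (adjusted p = 1.06e-06). Bank1, a scaffold protein of B cells, was detected on 0 of 4 Brown Norway and 4 of 4 Lewis arrays, at least 1.07-fold lower (adjusted p = 7.35e-05).

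Of 28 interferon-induced genes tested, 1 was higher and 3 lower, also over 6 arrays, with a median of -0.02. That is 14.3% in both fits, where 13.7% of all probes passed over 8 arrays and 9.86% over 6. Ifi44 read 9.23, 9.18, 8.58 and 9.09 in Brown Norway and 10.25, 10.02, 10.25 and 10.48 in Lewis, 2.35-fold lower (adjusted p = 1.75e-08). The GTPase gene Ifi47 was detected on 0 of 4 Brown Norway arrays and was at least 2.09-fold lower (adjusted p = 8.21e-16). Complement was divided: C1s, the protease of the first complement component, read 10.01, 10.10, 9.30 and 10.26 in Brown Norway and 11.18, 11.93, 11.27 and 11.53 in Lewis (difference -1.56, adjusted p = 9.34e-07), and Cfb, of the alternative pathway and singled out afterwards, was lower by a log2 difference of -0.56, while the inhibitor Cfi was higher by 0.70 (adjusted p = 0.000453). Over the list of 25 complement and coagulation genes, 4 were higher and 3 lower (3 and 2 over 6 arrays). That is 28% over 8 arrays and 20% over 6, where 13.7% and 9.86% of all probes passed.

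Genes tied to allergic airway disease were called in both directions. The type 2 cytokine genes Il4, Il13 and Il5 were detected on 0 of 36 arrays, so their levels were below what these probes can show. Of 18 type 2 immune genes tested, 2 were higher and 3 lower (1 and 1 over 6 arrays). That is 27.8% over 8 arrays and 11.1% over 6, where 13.7% and 9.86% of all probes passed. A second probe for Il33 was detected on 0 of 36 arrays and was not among the tested probes. Il33, an epithelial alarmin, read 12.10, 12.34, 11.39 and 11.78 in Brown Norway and 12.46, 12.40, 12.57 and 12.66 in Lewis, with Brown Norway replicate 3 lowest. Its difference of -0.62 (adjusted p = 0.0285) did not pass over 6 arrays (-0.49, adjusted p = 0.165) or when any of Brown Norway replicates 3 and 4 and Lewis replicates 3 and 4 was left out (adjusted p up to 0.151). Ccl11, the eosinophil chemokine eotaxin, read 9.05, 8.86, 8.10 and 8.72 in Brown Norway and 8.93, 9.46, 9.37 and 9.48 in Lewis (difference -0.63, adjusted p = 0.00257, and -0.38 with an adjusted p of 0.0673 over 6 arrays). The interleukin receptor gene Il9r, singled out afterwards, was higher and was detected on 4 of 4 Brown Norway and 0 of 4 Lewis arrays, at least 1.17-fold (adjusted p = 1.15e-07).

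Of 22 asthma susceptibility genes tested, 2 were higher and 4 lower (2 and 5 over 6 arrays). That is 27.3% over 8 arrays and 31.8% over 6, where 13.7% and 9.86% of all probes passed. The lower ones included the glutathione transferases Gstt1 (difference -0.52, adjusted p = 1.60e-06) and Gstm1 (-0.46, adjusted p = 0.011, and 0.0632 without Brown Norway replicate 2). Airway contraction genes gave 1 higher and 5 lower of 18 (1 and 1 over 6 arrays). Their 33.3% over 8 arrays was above the share of all probes, and their 11.1% over 6 was near it. Chrm3, the muscarinic receptor that contracts airway smooth muscle, read 8.61, 8.60, 8.96 and 8.66 in Brown Norway and 8.17, 8.37, 8.19 and 8.24 in Lewis (difference 0.46, adjusted p = 4.28e-05), with the groups apart, the highest value on Brown Norway replicate 3 and 3 of 4 Lewis arrays detected. Plcb1, a phospholipase that such receptors signal through, read 8.64, 8.60, 8.25 and 8.53 in Brown Norway and 9.10, 9.01, 9.03 and 9.21 in Lewis (difference -0.58, adjusted p = 2.70e-06). Of 13 smooth muscle and pericyte genes, 0 were higher and 1 lower (7.69%), and over 6 arrays 0 and 0.

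The 6 epithelial marker calls were all lower in Brown Norway. Aqp5, the water channel of type I cells, read 10.82, 10.80, 9.35 and 10.45 in Brown Norway, against 11.78, 11.67, 12.33 and 11.73 in Lewis, a log2 difference of -1.53 ± 0.28 (adjusted p = 0.000198). The groups did not overlap, Brown Norway replicate 3 was lowest, and over 6 arrays the difference was -1.26 (adjusted p = 0.00224). Sftpa1, a collectin of surfactant, read 14.74, 14.68, 14.39 and 14.53 in Brown Norway and 15.42, 15.30, 15.66 and 15.56 in Lewis, 1.87-fold lower (adjusted p = 3.43e-06), while Sftpc, the marker protein of type II cells, had a difference of -0.22 ± 0.11 and did not pass (adjusted p = 0.193). Scgb1a1, the club cell protein, read 16.01 to 16.08 in Brown Norway and 16.03 to 16.06 in Lewis, near the top of the array's range, which limits what its difference of 0.01 can show. By list, 0 were higher and 1 lower of 10 type II genes, 0 and 2 of 16 type I genes (12.5%) and 0 and 3 of 14 club cell genes (21.4%), where 6.91% of all probes were lower. Of 16 ciliated cell genes 0 passed, and 2 had an unadjusted p under 0.05 in limma. Over 6 arrays 1 type II, 1 type I, 2 club cell and 0 ciliated cell genes passed, where 5.1% of all probes were lower. Clic5, an ion channel protein of the type I list, and Aldh1a1, a retinal dehydrogenase of the club cell list, did not pass there (adjusted p = 0.129 and 0.253).

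Elastic fibre and collagen genes went both ways. Of 34 tested, 5 were higher and 3 lower (5 and 1 over 6 arrays), with a median of 0.09. The higher share was 14.7% in both fits, where 6.76% of all probes were higher over 8 arrays and 4.76% over 6. The lower share was 8.82% over 8 arrays and 2.94% over 6, where 6.91% and 5.1% of all probes were lower. Elastic fibres form on microfibrils made of fibrillins, and Fbn2 is the fibrillin of fetal and early postnatal tissue. Fbn2 read 10.07, 10.18, 11.02 and 10.49 in Brown Norway, against 9.16, 8.89, 8.90 and 8.72 in Lewis, a log2 difference of 1.52 ± 0.21, or 2.87-fold (adjusted p = 1.90e-06). No Brown Norway value fell within the Lewis range, and the highest was replicate 3, without which, and without Lewis replicate 2, the difference was 1.32 (adjusted p = 8.56e-05). Mfap2, a small glycoprotein of the same microfibrils, read 11.88, 11.65, 12.56 and 12.11 in Brown Norway and 11.13, 11.18, 10.99 and 10.99 in Lewis (difference 0.98, adjusted p = 4.42e-07). Mfap5, a further microfibril glycoprotein, was lower, with a difference of -0.88 (adjusted p = 0.0165) that did not pass over 6 arrays (-0.47, adjusted p = 0.272). Vcan, the proteoglycan versican, read 11.41, 10.87, 12.24 and 11.61 in Brown Norway and 10.28, 10.42, 10.15 and 10.09 in Lewis (difference 1.30, adjusted p = 7.67e-07), and Cdh11, a cadherin of mesenchymal cells, was 2.13-fold higher (adjusted p = 1.34e-05), both singled out after their values were seen.

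The collagen gene Col3a1 read 15.07, 15.13, 14.03 and 15.23 in Brown Norway and 13.80, 14.10, 14.08 and 13.75 in Lewis, where replicate 3 of Brown Norway fell among the Lewis values and the others lay above them, so that its difference was 0.93 over 8 arrays and 1.27 over 6 (adjusted p = 0.00164 and 1.56e-05). Aspn, a small proteoglycan also singled out afterwards, behaved likewise, at 1.02 and 1.58 (adjusted p = 0.0442 and 0.00234), and did not pass when any 1 of Brown Norway replicates 1, 2 and 4 or Lewis replicates 1, 3 and 4 was left out. The lower members of the list included the prolyl hydroxylase subunit P4ha1 (difference -0.44, adjusted p = 0.000901) and Sparc (-0.70), a collagen-binding glycoprotein that did not pass over 6 arrays. Brown Norway replicate 3 also had the lowest mean of the 18 fibroblast genes (12.67 against 13.25 to 13.29 on the others and 13.12 to 13.28 in Lewis). Cela1, a pancreatic-type elastase also expressed in the lung and singled out afterwards, was 2.35-fold higher (adjusted p = 1.21e-07).

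Growth signal genes gave 4 higher and 5 lower of 43 tested (5 and 1 over 6 arrays). That is 20.9% over 8 arrays and 14% over 6, where 13.7% and 9.86% of all probes passed. Besides Nfib, the hedgehog target Gli1 was higher by 0.64 (adjusted p = 0.0179), a call lost without Brown Norway replicate 4 or Lewis replicate 4 (adjusted p = 0.0588 and 0.0795). Bmpr2, the receptor mutated in human heritable pulmonary hypertension and singled out afterwards, read 12.78, 12.88, 12.04 and 12.50 in Brown Norway and 13.29, 12.93, 13.28 and 13.17 in Lewis (difference -0.62, adjusted p = 0.00188). Vessel genes held 2 of the higher calls, with Cavin2 joined by Vwf, the von Willebrand factor (difference 0.52, adjusted p = 0.0153; 0.0799 without Lewis replicate 2 and 0.0535 without Brown Norway replicate 4). Of 27 endothelial genes, 2 were higher and 1 lower (2 and 0 over 6 arrays). That is 11.1% over 8 arrays and 7.41% over 6, below the 13.7% and 9.86% of all probes. Lyve1, a hyaluronan receptor of lymphatic vessels and some macrophages, singled out afterwards, read 12.53, 12.68, 12.35 and 12.49 in Brown Norway and 10.99, 11.43, 11.23 and 11.45 in Lewis, 2.36-fold apart (adjusted p = 2.27e-08), with Fisher at 11.55.

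Of 51 enzymes and other genes that handle oxidants and foreign compounds, 5 were higher and 11 lower (4 and 9 over 6 arrays), with a median of -0.09. The lower share was 21.6% over 8 arrays and 17.6% over 6, where 6.91% and 5.1% of all probes were lower. The higher share was 9.8% and 7.84%, where 6.76% and 4.76% of all probes were higher. Sod3, the extracellular superoxide dismutase, read 11.98, 11.93, 10.002 and 11.92 in Brown Norway and 12.96, 12.85, 12.91 and 12.72 in Lewis. Brown Norway replicate 3 lay far below the rest, and the difference was -1.41 over 8 arrays and -0.93 over 6 (adjusted p = 0.00241 and 0.0288). Txnrd1, a thioredoxin reductase singled out afterwards, read 8.65, 8.76, 8.96 and 8.75 in Brown Norway and 9.62, 9.29, 9.57 and 9.41 in Lewis (difference -0.70, adjusted p = 7.68e-10). The lung flavin monooxygenase Fmo2 read 10.60, 10.83, 8.52 and 9.63 in Brown Norway and 10.73, 11.21, 11.25 and 12.30 in Lewis, where the ranges overlapped in replicate 2 of Brown Norway and replicate 1 of Lewis (difference -1.48 over 8 arrays and -1.07 over 6, adjusted p = 0.00262 and 0.027). Its family member Fmo1, singled out afterwards, passed over 8 arrays (-1.02, adjusted p = 0.00844) and not without Brown Norway replicate 3 (-0.62, adjusted p = 0.0598).

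On the higher side, the quinone reductase Nqo2 read 9.75, 9.65, 9.41 and 9.81 in Brown Norway and 8.48, 8.78, 8.59 and 8.64 in Lewis, 2.04-fold higher (adjusted p = 4.90e-08), and the aldo-keto reductase Akr1b8, singled out afterwards, was 1.62-fold higher. Cyp2e1, an ethanol-oxidising cytochrome, read 9.39, 9.87, 8.17 and 9.44 in Brown Norway and 10.63, 10.79, 10.75 and 10.93 in Lewis (difference -1.56, and -1.20 over 6 arrays, adjusted p = 1.09e-05 and 9.50e-05), and Brown Norway replicate 3 was the 1 array of the 8 without a detected signal. Bphl, a serine hydrolase, was 3.45-fold lower (adjusted p = 2.49e-13), and Pyroxd2, a mitochondrial oxidoreductase, 3.38-fold lower (adjusted p = 2.87e-11). Nbn, a sensor of DNA breaks, read 8.60, 8.61, 8.58 and 8.57 in Brown Norway and 10.19, 10.03, 10.01 and 10.28 in Lewis, a log2 difference of -1.54 (adjusted p = 1.20e-18), with Fisher at 8.74. Of 35 genes of cholesterol and fatty acid synthesis, 0 were higher and 4 lower (1 and 1 over 6 arrays), with Lpl, the lipoprotein lipase, at a difference of -0.67 (adjusted p = 4.94e-05). The share called was 11.4% over 8 arrays and 5.71% over 6, where 13.7% and 9.86% of all probes passed.

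Ribosomal protein genes were called mostly in 1 direction over 8 arrays. Of 58 cytoplasmic ribosomal protein genes, 11 were higher and 1 lower (4 and 1 over 6 arrays), with a median of 0.04. The higher share was 19% over 8 arrays and 6.90% over 6, where 6.76% and 4.76% of all probes were higher. After Rpl30 the largest difference was that of Rpl6, at 15.57, 15.54, 15.68 and 15.52 in Brown Norway and 14.59, 14.79, 14.65 and 14.68 in Lewis (difference 0.90, adjusted p = 2.32e-17). Rps19 was the lower one (difference -0.26). Of 74 cell cycle genes, 6 were higher and 0 lower (3 and 0 over 6 arrays), with a median of 0.10, or 0.05 over 6 arrays. The higher share, 8.11% over 8 arrays and 4.05% over 6, was near that of all probes. Prim1, the small subunit of DNA primase, read 11.41, 11.43, 11.91 and 11.77 in Brown Norway and 10.90, 10.90, 10.97 and 10.88 in Lewis (difference 0.72, adjusted p = 0.000151). The proliferation marker Mki67 had a difference of 0.06 ± 0.05 and did not pass (adjusted p = 0.431). The list's mean was highest on Brown Norway replicate 3 (9.30, against 8.90 to 9.18 on the other Brown Norway arrays and 8.92 to 8.98 on the Lewis arrays). Ndufaf5, an assembly factor of respiratory complex I, was 2.32-fold higher (adjusted p = 4.89e-10), among 48 respiratory chain genes of which 1 was higher and 1 lower. That is 4.17% of the list, below the 13.7% of all probes. The share that neutrophil, red cell and cell cycle genes of replicate 3 had in these counts was not tested, beyond the fit without it.

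Genes that answer to the hour, to stress or to handling differed one by one. Dbp, an output gene of the circadian clock, read 8.29, 8.33, 8.32 and 8.32 in Brown Norway and 8.75, 8.97, 8.70 and 8.96 in Lewis, a log2 difference of -0.53 ± 0.04 (adjusted p = 4.75e-11). Its groups were apart, and it was 1 of 2 called among 14 clock genes. That is 14.3% of the list, near the 13.7% of all probes. The immediate early gene Egr2 read 9.29, 9.26, 9.17 and 9.06 in Brown Norway and 10.18, 9.81, 10.04 and 9.47 in Lewis (difference -0.68, adjusted p = 3.48e-05). Jund, of the AP-1 family, was higher by 0.56 (adjusted p = 0.000152). Of 29 such genes 1 was higher and 1 lower, or 6.9%, where 13.7% of all probes passed. Hspb1, a small heat shock protein, read 13.37, 13.36, 13.84 and 13.33 in Brown Norway and 14.14, 14.37, 14.24 and 14.14 in Lewis (difference -0.74, adjusted p = 2.66e-05). The mean over the immediate early genes was 11.14 on Brown Norway replicate 3, against 10.56 to 10.70 on the other Brown Norway arrays and 10.58 to 10.81 on the Lewis arrays.

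**Figure D4:**
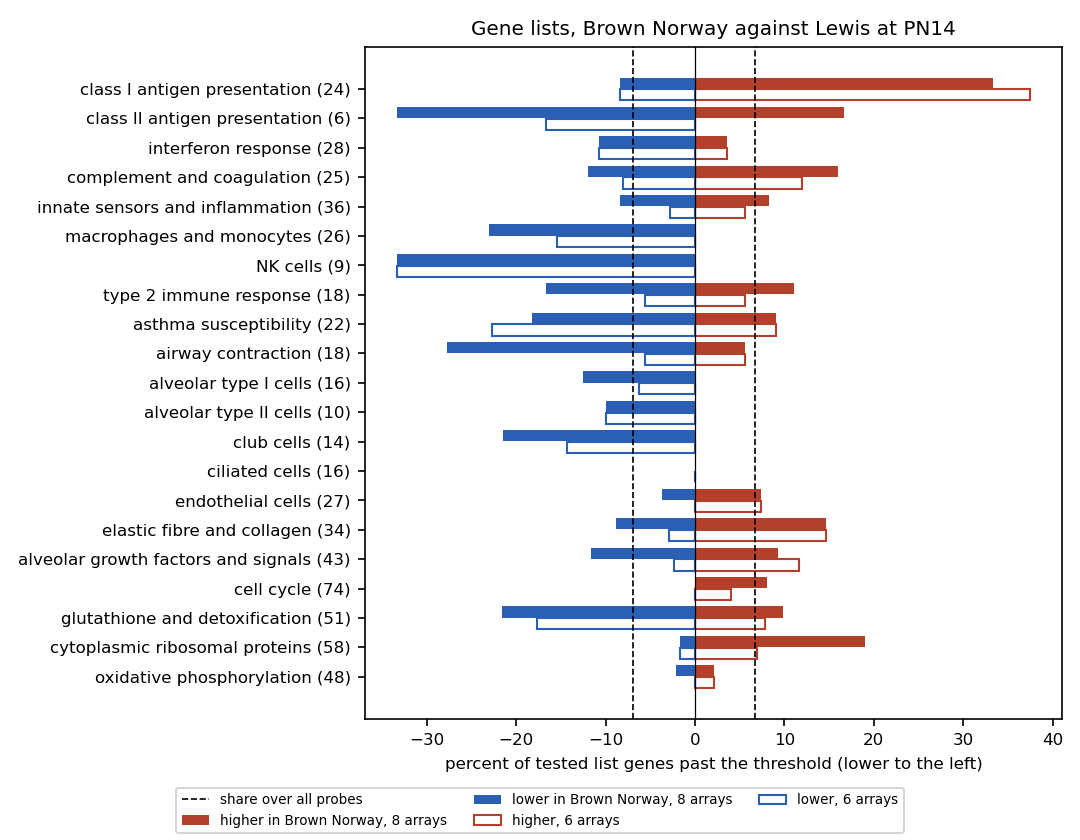
Percent of tested genes of 21 lists that passed an adjusted p of 0.05 at PN14, higher in Brown Norway to the right and lower to the left; filled bars are from 8 arrays and open bars from 6, and the number of genes tested stands in brackets. Dashed lines mark the shares over all probes with 8 arrays (6.76% higher, 6.91% lower). With 6 arrays these shares were 4.76% and 5.1%. Class I genes pass the right line in both fits (33.3% and 37.5%), and also the left (8.33% in both). Detoxification genes pass the left line (21.6% and 17.6%) and also the right (9.8% and 7.84%). Other lists, such as macrophages and monocytes, pass a line in both fits as well.

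Some calls rested on the 2 arrays that stand apart. Among the 8 genes with the largest differences that passed over 8 arrays but not over 6, Cyp2t1 read 8.73, 8.65, 8.63 and 8.71 in Brown Norway and 8.85, 12.02, 8.96 and 9.26 in Lewis, where replicate 2 alone was high. Without Lewis replicate 2 its difference was -0.34 instead of -1.09. Igfbp6 and Phyh were likewise highest on Lewis replicate 2. Mfap5, Aoc3, Lrrn3, Prelp and Rarres2 were lowest on Brown Norway replicate 3, and without it their differences were -0.56, -0.53, -0.60, -0.57 and -0.50, instead of -0.88, -0.95, -0.94, -0.90 and -0.83.

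Set beside PN7, the changes in the strain differences of the 3 RT1 heavy chain genes and of Nfib did not pass, whereas those of Fbn2, Cd248, Plat and Vcan passed over both 8 and 6 arrays. The difference between the strains changed from PN7 to PN14 for 383 probes (3.38%) by a test of the change itself, and for 212 without the 2 arrays that stand apart. The strain difference of RT1-CE16 was 3.32 at PN14 and 3.11 at PN7, and that of Nfib 2.00 and 2.49. Fbn2 had a difference of 1.52 at PN14 and of 0.02 at PN7, a change of 1.50 (adjusted p = 0.00372): the 4 Brown Norway arrays averaged 10.44 ± 0.43 at PN14 against 10.99 ± 0.23 at PN7, and the 4 Lewis arrays 8.92 ± 0.18 against 10.97 ± 0.21. Cd248, the endosialin of pericytes and fibroblasts, read 12.45, 12.02, 12.38 and 12.54 at PN14 in Brown Norway and 11.52, 11.83, 11.26 and 11.38 in Lewis, with a change in the strain difference of 1.00 (adjusted p = 4.44e-05). Plat, tissue plasminogen activator, changed by 0.97 (adjusted p = 0.000496), Vcan by 0.92 and Mfap2 by 0.62 (adjusted p = 0.0257 and 0.0378). Over 6 arrays at PN14 the adjusted p of the change was 0.0179 for Fbn2, 1.08e-05 for Cd248, 0.00259 for Plat, 0.0407 for Vcan and 0.0739 for Mfap2.

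Cirbp, a cold-inducible RNA-binding protein, had a strain difference of 0.67 at PN14 and of -0.77 at PN7 (change 1.44, adjusted p = 0.000228). The change was negative for Cxcl12, a chemokine that holds leukocytes and progenitors, whose strain difference was -0.66 at PN14 and 0.59 at PN7 (change -1.25, adjusted p = 0.00165). The claudin Cldn11, a tight junction protein, had -1.04 at PN14 and -0.06 at PN7 (change -0.98, adjusted p = 0.00301). Tgfb1i1, a focal adhesion adaptor, passed at PN7 (1.24) and not at PN14 (-0.07, adjusted p = 0.879). Scaling by medians left only 21 probes with a change past the threshold.

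**Figure D5:**
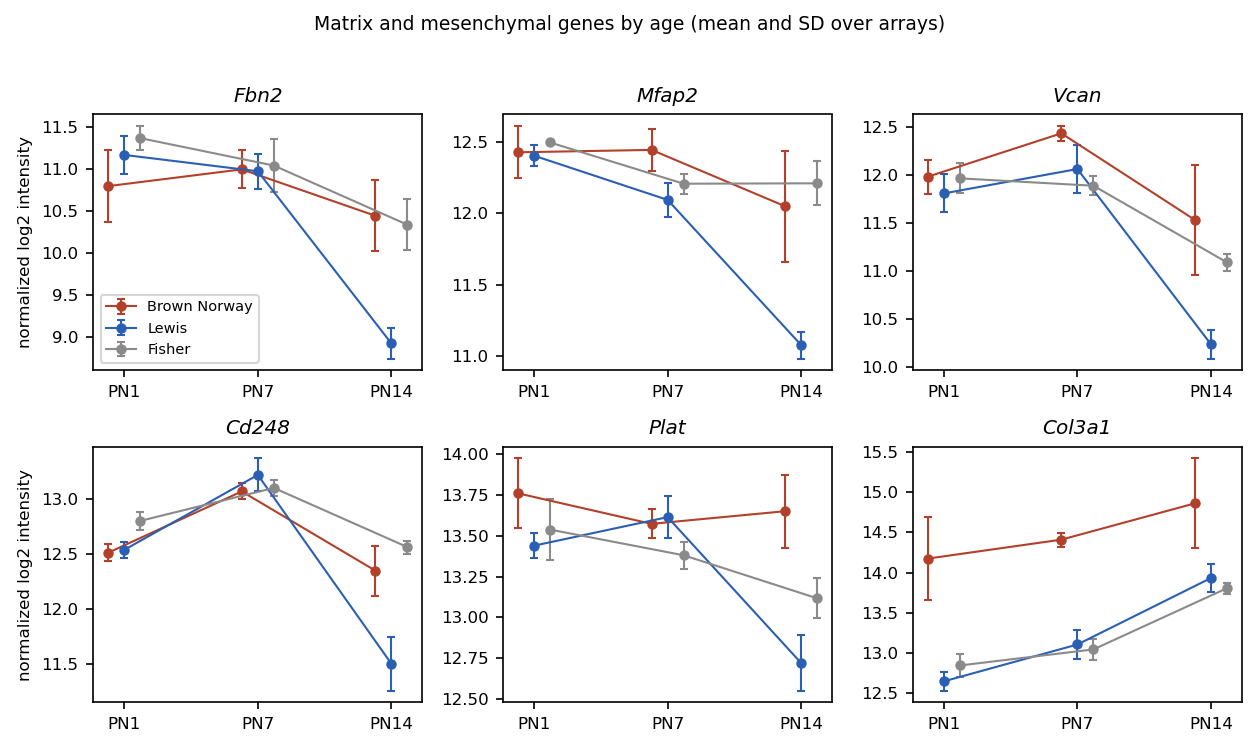
Normalized log2 intensity of 6 matrix and mesenchymal genes at PN1, PN7 and PN14 in Brown Norway (red), Lewis (blue) and Fisher (grey); points are means and bars SD over the arrays of a group, and each panel has its own vertical range. At PN14 Fbn2 lies at 10.44 in Brown Norway and 8.92 in Lewis, after near-equal means at PN7. The Brown Norway means include PN1 replicate 5, which resembles PN14, and PN14 replicate 3, which resembles PN1.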

How the data were processed

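Total RNA from whole rat lung was labelled with biotin and hybridised to one-colour Illumina beadchips. Per the file headers, the deposited scanner table gives the linear intensity of 22226 probes on each array, each with a bead number and a p-value for detection, and the authors had not normalised that intensity. The authors also deposited log2 values, made with lumi per the submitters' processing notes, which served as an alternative. A further 36 per-sample columns were not used.

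Intensities were corrected and quantile normalised on the log2 scale with neqc (limma 3.58.1, R 4.3.3, offset 16). Tests covered the 11339 probes whose detection p fell under 0.01 on 3 or more arrays. Limma was fitted to all 36 arrays with 1 mean for each of 9 groups, and p-values were adjusted by Benjamini-Hochberg over all tested probes, with a threshold of 0.05. Differences are Brown Norway minus Lewis. "At least" marks a bound for a gene detected on 0 arrays of the dimmer group. The bound sets the brighter group's mean against, for each array of the dimmer group, the higher of its own value and the lowest signal among detected probes.

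Symbols are those of GEO's annotation of the platform, which can be old. It names 13192 probes, 8115 of them tested. The 46 gene lists and the named genes were chosen with earlier results of these data known. The naming rule took the 15 highest and the 15 lowest genes that also passed without the 2 arrays that stand apart, up to 3 genes per list, the 8 largest that passed only with those arrays, the 5 largest changes each way between PN7 and PN14, and 6 fixed genes. Not every gene that the rule took is described in the text. Other genes were singled out after their values were seen.

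Brown Norway PN14 and 3 Lewis PN14 arrays were on slide 3, and Lewis replicate 1 on slide 2, so the slide was tried as a block. Replicate numbers were not used to pair the samples in the main fit. The deviations of same-numbered arrays correlated at 0.13, -0.27, -0.10 and -0.03, too few values to show or exclude a pairing. The replicate number was also tried as a block. The model was tested on simulated data. The number of arrays limits the precision.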

Additional observations from a re-analysis of the deposited data

Results flagged for a closer look

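The strain difference, Brown Norway minus Lewis, was not the same at PN14 and PN7 for 29 named genes by limma's test of the change (adjusted p under 0.05), where 3.38% of all probes changed. Of the 29, 10 had been chosen for the size of this change, so their number is no measure of how common it was. Over 6 arrays at PN14, without Brown Norway replicate 3 and Lewis replicate 2, 22 passed and 7 did not, namely RT1-DMa, Ctsw, Ndufaf5, Mfap2, Apoc1, P4ha1 and Lyve1. The change, PN14 minus PN7 on the log2 scale, was positive for Fbn2 (1.50), Cirbp (1.44), Nop58 (1.06), Cd248 (1.00), Plat (0.97), Vcan (0.92), Ank1 (0.83), Csnk1d (0.81), RT1-DMa (0.65), Aqp1 (0.63), Mfap2 (0.62) and Ankra2 (0.41). It was negative for Cyp2e1 (-1.42), Tgfb1i1 (-1.31), Cxcl12 (-1.25), Dlgap4 (-1.16), Cldn11 (-0.98), Plekhh1 (-0.83), Lyve1 (-0.83), Mrpl18 (-0.64), Prf1 (-0.63), Ndufaf5 (-0.62), Plvap (-0.58), P4ha1 (-0.55), Zcchc9 (-0.33), Dbp (-0.30), Apoc1 (-0.27), Gzma (-0.13) and Ctsw (-0.12).

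Of 268 groups of 4 arrays (the Brown Norway and the Lewis arrays of each named gene), 24 held 1 array far from the 3 others, where chance gives about 1 in 20 groups. The named genes include 8 chosen because they passed only with the 2 arrays that stand apart, and 4 of the 24 are among those, so the count is a description and no test. Brown Norway replicate 3 was that array for 13 of them. It was the highest for Bnip3 (11.94 against 11.48 to 11.55), Chrm3 (8.96 against 8.60 to 8.66), Hspb1 (13.84 against 13.33 to 13.37), Plat (13.99 against 13.51 to 13.58), Rspo1 (8.38 against 8.16 to 8.17) and RT1-DMa (10.65 against 10.05 to 10.15), and the lowest for Casp4 (8.69 against 8.91 to 8.94), Col3a1 (14.03 against 15.07 to 15.23), Lrrn3 (8.69 against 9.95 to 10.14), Pyroxd2 (9.08 against 9.75 to 9.85), Rarres2 (10.88 against 12.11 to 12.29), Sod3 (10.002 against 11.92 to 11.98) and Vwf (13.85 against 14.44 to 14.47). Lewis replicate 2 was that array for 7 genes, highest for Cxcl9 (8.32 against 8.14 to 8.17), Cyp2t1 (12.02 against 8.85 to 9.26), Igfbp6 (11.65 against 10.46 to 10.59), Lipe (10.52 against 9.97 to 10.04) and Synpo2 (9.21 against 8.64 to 8.73) and lowest for Plvap (15.11 against 15.35 to 15.39) and Qrfpr (9.88 against 10.34 to 10.43). The remaining 4 arrays were Brown Norway replicate 2 for Ankra2 (10.32 against 10.08 to 10.10), Lewis replicate 3 for Aqp5 (12.33 against 11.67 to 11.78), and Lewis replicate 1 for Cxcl12 (12.06 against 12.32 to 12.35) and RT1-A1 (12.39 against 12.82 to 12.89).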

How the results depend on the processing

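Of the 130 named genes that passed, 61 stayed past the threshold with the same sign under every alternative that gave a value. Scaling by medians left 660 probes, 393 higher and 267 lower in Brown Norway, with 85 named genes, 75 list genes and 21 probes whose difference changed from PN7. Fitting the 8 arrays alone left 793 probes, 393 higher and 400 lower, with 79 named genes and 68 list genes. The authors' deposited values gave 395 probes at least 2-fold apart, against 97. Within slide 3 alone 508 probes were lower and 1085 passed in all, and with the slide as a block 1608 passed. Without Brown Norway replicate 3 and Lewis replicate 2, 212 probes changed from PN7, and with array weights 830 did, against 383. Leaving out 1 array at a time gave 1225 to 1533 probes in all, 589 to 758 higher and 614 to 775 lower, and 239 to 471 changed from PN7. The lowest counts of probes changed from PN7 were 239 without Lewis replicate 3 and 251 without Lewis replicate 2. Leaving out Brown Norway PN1 replicate 5, which resembles PN14, beside the 2 arrays gave 1393 probes. The replicate numbers as a block gave 1758 probes past the threshold against 1550, and 1 named gene no longer passed. Scgb1a1, which never passed, changed sign: -0.000151 without the 2 arrays and without all 3, -0.00247 with array weights, and between -0.0033 (without Brown Norway replicate 1) and 0.0183 (without Brown Norway replicate 2) over single arrays left out, with -0.00198 without Lewis replicate 4. The cause of these shifts was not tested.

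Probes near background, such as those at 8.0 to 8.3, have compressed differences, and the folds there depend on the background correction. Probe sequences and the strains' alleles were not compared.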
